A study of Mus musculus with 6 samples.

Results

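Constitutive metalloproteinases and their inhibitors in synovial fibroblasts (SFs) were followed through 9 genes, namely Mmp2, Mmp11, Mmp14, Mmp19, Mmp23, Timp1, Timp2, Timp3 and Reck. They were taken by gene name from the 49548 genes of the deposited expression table, and all 9 were found there. The rule uses no measured value, but the list was drawn up with earlier results of these data known. The cells were primary SFs from the ankles of hTNFtg mice, which carry a human TNF transgene, on a CBA C57BL/6J background and aged 8 weeks, grown out after Collagenase IV digestion and depleted of CD45+ cells at passage 1. The study looked for drugs that could be repurposed against SF activation in arthritis. These libraries served to see how its candidate, the antipsychotic amisulpride, alters the transcripts of these inflamed fibroblasts. Amisulpride blocks dopamine and serotonin receptors, but the paper could not detect Drd2, Drd3 or Htr7 expression in hTNFtg SFs. One group of 3 libraries came from hTNFtg SFs given 500 μM amisulpride for 48 hours, and the other 3 came from hTNFtg SFs that the labels give as not treated, although the methods speak of vehicle. Both groups carry the transgene, so no group here shows the normal level of these genes. The methods call the 3 cultures per group biological replicates.

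Matrix metalloproteinases (MMPs) are zinc enzymes that cut collagens, proteoglycans and other proteins around the cell, and in arthritic joints SFs are a main source of them. They are made as inactive precursors whose propeptide must be removed, either outside the cell by other proteases or inside it by furin-like proprotein convertases. Tissue inhibitors of metalloproteinases (TIMPs) plug the active site, Timp3 while bound to the matrix and the others in solution, and Reck is an inhibitor anchored in the cell membrane. At the cell surface, Mmp14 with a bound Timp2 molecule serves as the platform on which the Mmp2 precursor is activated, so that the same inhibitor can both promote and block that step.

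Of the 5 proteases, 3 carry a furin-type cleavage motif ahead of the zinc-binding site in their coding sequence, so that convertases can remove their propeptide inside the cell. The motif is an arginine, any residue, a lysine or arginine, and an arginine. The stretches around it are shown because they are the substrates of the convertases, whose own transcripts are described further on. They were read from the GENCODE M21 transcript sequences, 5′ to 3′ on the coding strand, and the capitals mark the codons of the motif. The reading frame was the longest open frame from an ATG, and positions are on GRCm38 (mm10) by the GENCODE M21 exons. The Mmp11 stretch lies at chr10:75928318-75928347 on the minus strand, that of Mmp14 at chr14:54436193-54436222 on the plus strand and that of Mmp23 at chr4:155652493-155652522 on the minus strand. No match stood ahead of the zinc-binding site of Mmp2 or Mmp19.
Mmp11: gcccggaacCGACAGAAGCGCttcgtcctg
Mmp14: gccaatgttCGGAGGAAGCGCtatgccatt
Mmp23: tcggtaaccCGAAGACGCCGCtacacgctg

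Values are read counts that the authors scaled per library and rounded to whole numbers, called normalised counts here. Library totals were 3.83 to 4.50 M normalised counts, and the approximate depth recovered from the steps between low values was 2.52 to 4.71 M reads, with that of untreated replicate 1 uncertain. Amisulpride replicate 3 was the shallowest library and stood apart, with correlations of 0.902 and 0.908 (Pearson's r of log2 values) to the other treated libraries, against 0.944 to 0.959 among untreated ones. The 8 fibroblast markers were all measured, and their summed level was 40991 to 50510 normalised counts in untreated and 44325 to 74932 in amisulpride-treated libraries. The 8 myeloid markers summed to 2226 to 3826 and 2019 to 3888, most of it Lyz2, although CD45+ cells had been depleted. Ptprc, the gene of CD45 itself, read 38, 12 and 18 in untreated and 23, 5 and 5 in treated libraries. Of the 4 endothelial markers Cdh5 was at 0 in every library and the sum was at most 13. Single markers differed more than these sums. Cd14, a myeloid receptor for bacterial lipopolysaccharide, read 121, 69 and 76 in untreated and 47, 25 and 13 in treated libraries, with no overlap. Its log2 fold change was -1.74 at an adjusted p of 0.144 in limma, or 0.0121 with the replicate number as a block. Csf1r, the macrophage growth factor receptor, was at -1.01 with an unadjusted p of 0.0486 in limma and overlapping groups. The other 6 myeloid markers had an unadjusted p above 0.05 in limma. By log2 fold change, Adgre1 (0.83) and Cd68 (0.31) were higher, and Ptprc (-1.16), Tyrobp (-0.34), Itgam (-0.15) and Lyz2 (-0.14) lower. The 4 mural and muscle markers summed to 65 to 184 and 88 to 161, and the 5 chondrocyte and bone markers to 278 to 323 and 249 to 572, most of it Sox9. Alpl, an alkaline phosphatase listed here as a bone marker, read 63, 21 and 28 in untreated and 8, 4 and 5 in treated libraries without overlap. Its log2 fold change was -2.41 at an adjusted p of 0.0925 in limma, or 0.0148 with the block. Treated values of 4 and 5 for Alpl, and of 5 for Ptprc, lie near the 2.69 to 5.37 normalised counts that 3 reads are worth in treated libraries. The sizes of both changes are thus poorly known. Of the fibroblast markers, Prg4, the lubricin of lining SFs, was at -0.92 with no overlap and an adjusted p of 0.251 in limma. The rest of the fibroblast markers had overlapping groups. Col1a2 (log2 fold change 0.71), Col1a1 (0.49), Thy1 (0.21) and Vim (0.21) were higher, and Pdpn (-0.67), Pdgfra (-0.22) and Pdgfrb (-0.14) lower. Cd14 and Alpl, named after their values were seen, were lower, as were Mmp14, Mmp19, Furin and the tested inducible MMPs given below. Adgre1, Cd68 and Sox9 (log2 fold change 0.38) were higher in mean. The part of other cell types in these results was not tested. In bulk libraries fewer cells of a type and less RNA per cell cannot be told apart.

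The 9 genes did not move one way under amisulpride. The inhibitors Timp3 and Reck and the protease Mmp11 were higher in all 3 treated libraries than in any untreated one. Mmp19 was lower in all 3, and Mmp14 was lower in mean with groups that overlapped narrowly. Mmp2, Mmp23, Timp1 and Timp2 also had overlapping groups. All 9 genes were above 0 in every library and passed the filter on low values (at least 10 normalised counts in at least 3 of 6 libraries), as did 12614 genes in all. Differences were tested with limma on log2(normalised count + 1), with p-values adjusted over all genes tested, and fold changes are on that scale.

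**Figure D1:**
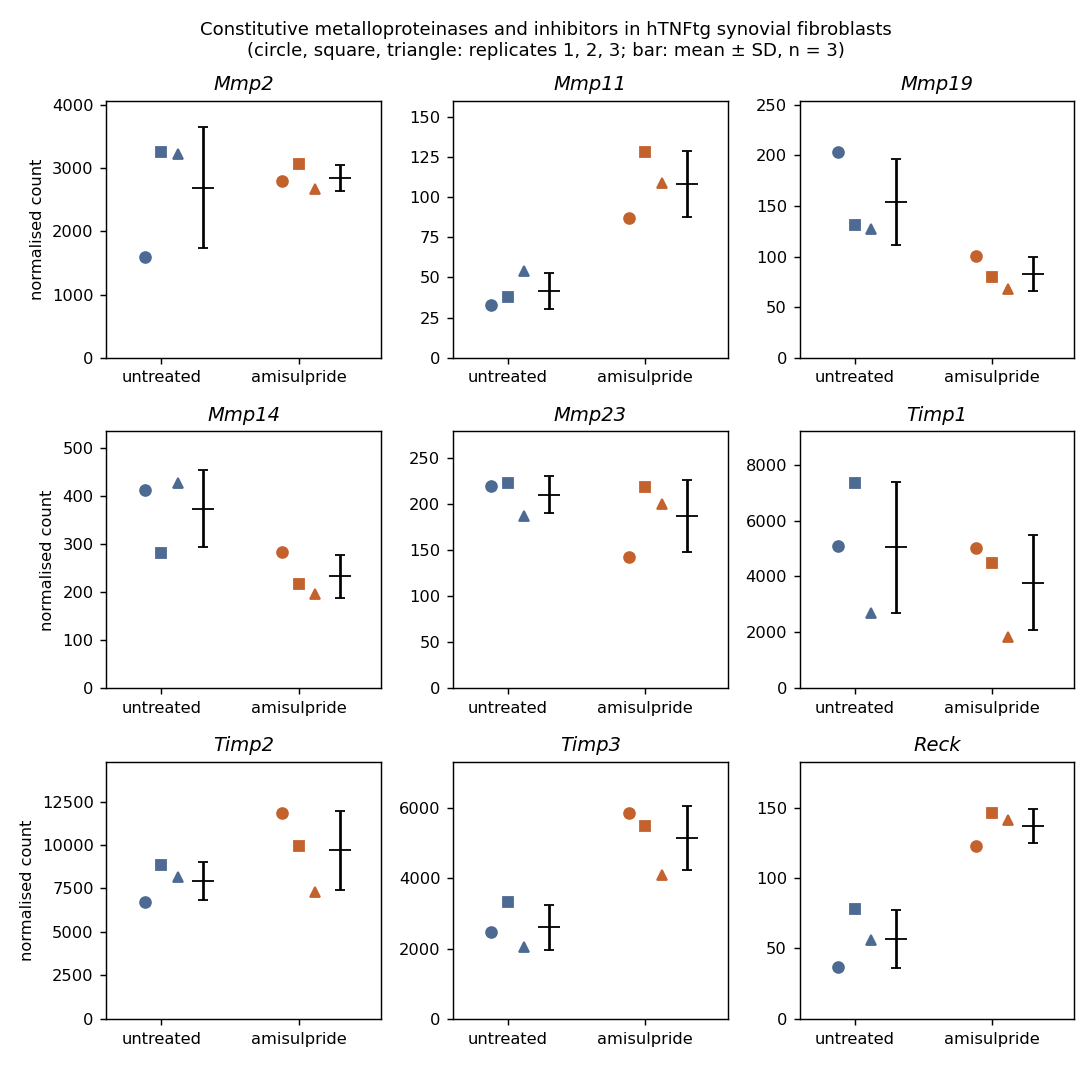
Normalised counts (linear axes from 0, a separate scale for each gene) of the 9 genes in the 3 untreated (blue) and 3 amisulpride-treated (orange) libraries, with the mean and SD as black bars and the replicate number as the symbol. Mmp11, Timp3 and Reck lie higher in all treated libraries and Mmp19 lower. The Mmp14 groups overlap narrowly, between 282 and 284, and the other 4 genes overlap as well.

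None of the 9 genes had an adjusted p under 0.05 in limma, which called 36 of the 12614 genes (0.285%). With the replicate number as a block, which pairs libraries of the same number, limma called 2 of the 9, Mmp11 and Reck, both higher, against 263 genes (2.08%). At an unadjusted p under 0.05 there were 5 of 9, of which 3 were higher and 2 lower, against 10.9% of genes tested in either direction. The study's own thresholds ask for a log2 fold change of 1 or more in either direction and an unadjusted p under 0.05. They were met by Mmp11 and Reck, against 5.7% of genes tested. Groups that did not overlap were found for 3 genes on the higher side, against 7.8% of genes tested, and for 1 gene on the lower side, against 8.66%. Mean log2 fold changes were above 0 for 5 genes and below 0 for 4. Their median was 0.15, against 0.0016 over all genes tested. By role, the median was -0.18 over the 5 proteases and 0.63 over the 4 inhibitors.

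Mmp11, or stromelysin 3, is a secreted protease of stromal cells that cuts few matrix proteins directly and is activated inside the cell by furin. The gene (ENSMUSG00000000901) lies at chr10:75923222-75932502 on the minus strand. Its normalised counts were 33, 38 and 54 in untreated and 87, 128 and 109 in amisulpride-treated SFs. Every treated library was above every untreated one, and untreated replicate 3 came closest to the treated range. The mean went from 41.7 ± 11 (SD, n = 3) to 108 ± 20.5 (SD, n = 3), 2.59 times as high. On the log2 scale the difference was 1.37 ± 0.31 (SE), with a 95% interval of 0.69 to 2.04. The unadjusted p from limma was 0.000915, the lowest of the 9 genes, and the adjusted p was 0.0965, or 0.0257 with the replicate block. These counts rested on approximately 34 to 97 reads per library. By replicate number the log2 differences were 1.37, 1.73 and 1.0, so that all 3 pairs went the same way.

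Among the 11034 protein-coding genes tested, the 3 whose log2 profile over the 6 libraries lay nearest to that of Mmp11 were Acot2, 2610002M06Rik and Nln. Likeness was the root mean square difference after centring each gene on its mean, and it came to 0.14, 0.15 and 0.16 on the log2 scale. Acot2, a mitochondrial acyl-CoA thioesterase, read 31, 28 and 43 in untreated and 81, 108 and 106 in treated libraries. All 3 neighbours were higher in every treated library, as their choice by likeness makes likely.

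Mmp19 is a secreted protease that cuts basement membrane proteins and is also known as an autoantigen of the rheumatoid synovium. It lies at chr10:128790953-128800824 on the plus strand (ENSMUSG00000025355). The normalised counts were 203, 131 and 127 in untreated and 101, 80 and 68 in treated libraries. All treated values lay under all untreated ones, and replicate 1 was the highest in both groups. Means were 154 ± 42.8 and 83.0 ± 16.7 (SD, n = 3 each), so that untreated SFs held 1.85 times the treated level. In limma the log2 fold change was -0.87 ± 0.29 (SE), the unadjusted p 0.0125 and the adjusted p 0.277. The Tmem198b gene overlaps Mmp19 by 789 bases on the opposite strand and read 29 to 60 normalised counts, and the sources used here do not say whether counting used the strand.

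Mmp2, or gelatinase A, is the major constitutive gelatinase of fibroblasts and the protease that the Mmp14 and Timp2 platform activates. The gene is at chr8:92827291-92853420 on the plus strand (ENSMUSG00000031740). It read 1586, 3248 and 3227 in untreated and 2798, 3065 and 2670 in treated libraries. All treated values fell between the low untreated replicate 1 and the other two untreated libraries. For Mmp2 the log2 fold change came to 0.15 ± 0.31 (SE), its 95% interval ran from -0.53 to 0.83, and the adjusted p was 0.886. Its sign rested on untreated replicate 1, without which it was -0.19.

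Mmp14, the membrane-bound MT1-MMP, cuts fibrillar collagen at the cell surface and starts the activation of Mmp2. The gene is at chr14:54431612-54441265 on the plus strand (ENSMUSG00000000957). Its normalised counts were 413, 282 and 428 in untreated and 284, 218 and 197 in treated SFs. The groups overlapped narrowly, since the highest treated library was just above the lowest untreated one. Means were 374 ± 80.3 and 233 ± 45.4 (SD, n = 3 each), the untreated 1.61 times the treated. Its log2 fold change was -0.67 ± 0.27 (SE), and the unadjusted p of 0.0275 became an adjusted p of 0.371 in limma. Within replicate numbers the log2 differences were -0.54, -0.37 and -1.12, so that all 3 pairs were lower.

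Mmp23 is an unusual membrane-tethered protease that is released when its own furin-type site is cut. It is at chr4:155650655-155653384 on the minus strand (ENSMUSG00000029061). It read 220, 223 and 187 in untreated and 143, 218 and 200 in treated libraries, and amisulpride replicate 1 alone lay under the untreated range. For Mmp23 the log2 fold change came to -0.18 ± 0.26 (SE), its 95% interval ran from -0.75 to 0.38, and the adjusted p was 0.835.

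Timp3 is the TIMP that binds the matrix and also blocks sheddases such as Adam17, which frees TNF from the cell surface. The gene is at chr10:86300372-86349506 on the plus strand (ENSMUSG00000020044). It read 2464, 3313 and 2047 normalised counts in untreated and 5848, 5485 and 4105 in treated libraries. Every treated library exceeded every untreated one, the closest being amisulpride replicate 3 and untreated replicate 2. The mean went from 2608 ± 645 to 5146 ± 920 (SD, n = 3 each), 1.97 times as high. The log2 fold change of 0.99 ± 0.28 (SE) lay just short of the study's threshold of 1. Its unadjusted p was 0.00453 in limma and its adjusted p 0.197, or 0.0703 with the replicate block. Timp3 lies within the Syn3 gene on the other strand, which read at most 1 in any library.

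Reck anchors in the membrane and restrains Mmp14, Mmp2 and Mmp9. The gene is at chr4:43875530-43944806 on the plus strand (ENSMUSG00000028476). It read 37, 78 and 56 in untreated and 123, 146 and 141 in treated SFs. The groups were well apart, and the treated libraries varied less among themselves than the untreated ones did. Means were 57.0 ± 20.5 and 137 ± 12.1 (SD, n = 3 each), 2.40 times as high under amisulpride. The log2 fold change was 1.31 ± 0.31 (SE), with a 95% interval of 0.62 to 2.0. The unadjusted p in limma was 0.0015 and the adjusted p 0.117, or 0.0266 with the replicate block. The values rested on approximately 38 to 137 reads per library.

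Timp1, the soluble TIMP that inflammatory cytokines induce, is at chrX:20870166-20874735 on the plus strand (ENSMUSG00000001131). It read 5103, 7352 and 2680 in untreated and 5024, 4468 and 1841 in treated libraries. Replicate 3 was the lowest library of each group, and the groups overlapped widely. All 3 within-number log2 differences were below 0, at -0.02, -0.72 and -0.54. For Timp1 the log2 fold change came to -0.43 ± 0.44 (SE), its 95% interval ran from -1.40 to 0.54, and the adjusted p was 0.768 in limma. Without amisulpride replicate 3 the value was 0.027. The Syn1 gene on the opposite strand around Timp1 read 2 to 8 normalised counts.

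Timp2, the constitutive soluble TIMP and partner of Mmp14, is at chr11:118301069-118355740 on the minus strand (ENSMUSG00000017466). It read 6742, 8873 and 8134 in untreated and 11824, 9945 and 7322 in treated libraries. The first and second treated libraries stood above the untreated range, and the third lay within it. For Timp2 the log2 fold change came to 0.27 ± 0.29 (SE), its 95% interval ran from -0.37 to 0.92, and the adjusted p was 0.778. The BC100451 gene, which overlaps Timp2 on the same strand, read 2 to 5, and the small RNA gene Gm27265 inside Reck was at 0 in every library.

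**Figure D2:**
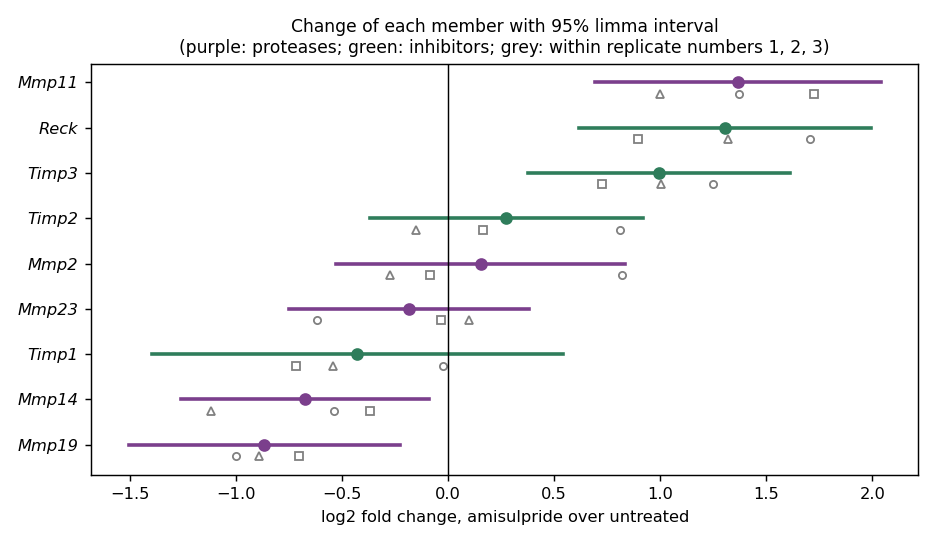
Log2 fold change (amisulpride over untreated, horizontal axis) of each of the 9 genes with its 95% limma interval, proteases in purple and inhibitors in green, and the differences within replicate numbers 1, 2 and 3 as grey circles, squares and triangles. The intervals of Mmp11, Reck and Timp3 lie above 0 and those of Mmp14 and Mmp19 below it, without adjustment for the number of genes tested.

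The balance between a protease and an inhibitor, or between Timp1 and Timp3, was compared as the log2 ratio of their normalised counts (each + 1). It was taken within a library, so it does not depend on the scaling of that library. The ratio is not one of molecules, so only its difference between groups is read. Among proteases only Mmp2 and Mmp14 entered. Mmp11, with a log2 fold change of 1.37 against 1.31 for Reck and 0.99 for Timp3, was left out. The ratios therefore do not describe the balance over all 9 genes. How often ratios of other gene pairs separate the groups was not counted. The Mmp14 to Reck ratio was 3.45, 1.84 and 2.91 in untreated and 1.20, 0.58 and 0.48 in treated libraries. The groups did not overlap, and the ratio was lower under amisulpride by a mean log2 difference of -1.98. The Mmp14 to Timp2 ratio was -4.03, -4.97 and -4.25 in untreated and -5.37, -5.51 and -5.21 in treated libraries, a difference of -0.95 between groups that again did not overlap. For Timp1 to Timp3, the soluble against the matrix-bound inhibitor, the ratio was 1.05, 1.15 and 0.39 in untreated and -0.22, -0.30 and -1.16 in treated libraries, a difference of -1.42 with no overlap. The Mmp2 to Timp2 ratio was -2.09, -1.45 and -1.33 in untreated and -2.08, -1.70 and -1.46 in treated libraries, and these groups overlapped with a difference of -0.12.

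Each of the first 3 ratios had a two-sided exact permutation p of 0.1, the smallest that 3 libraries against 3 allow, and 0.133 after adjustment over the 4 ratios. For Mmp2 to Timp2 the exact permutation p was 0.7, also after adjustment. This exact test can therefore not bring any of these ratios under 0.05 with 3 libraries a group. The same 6 libraries and some of the same genes enter these ratios and the single-gene results, so the ratios restate those values rather than add to them.

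**Figure D3:**
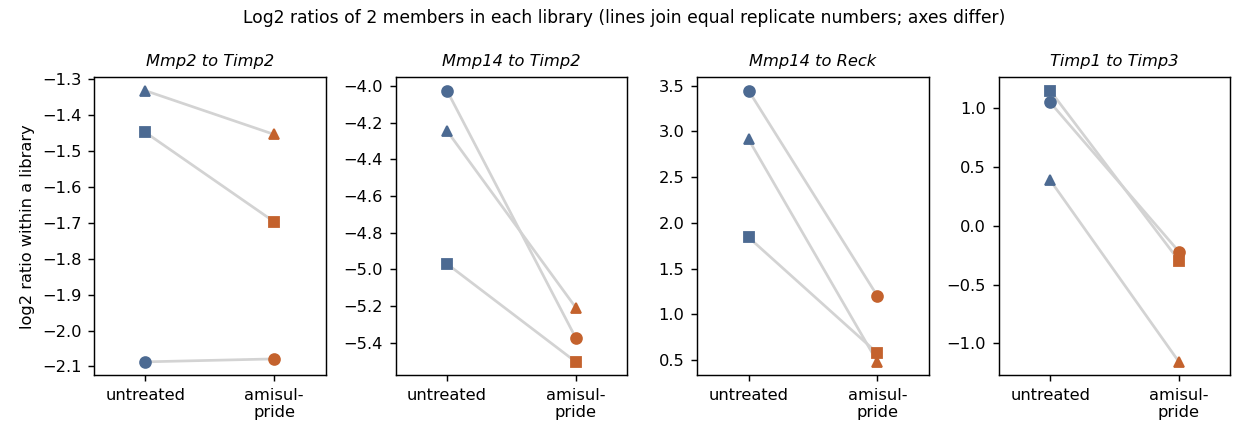
Log2 ratio of the normalised counts of 2 genes within each library (vertical axis, a separate scale for each panel, not starting at 0), with grey lines between libraries of the same replicate number. The treated libraries (orange) lie below all untreated ones (blue) for Mmp14 to Timp2, Mmp14 to Reck and Timp1 to Timp3, and overlap them for Mmp2 to Timp2.

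The promoters of Mmp11, Reck and Timp3 are shown because these 3 genes had higher values in all treated libraries. Each is the 250 bases ahead of the RefSeq start (GRCm38.p6), 5′ to 3′ on the strand of the gene, with capitals for each match to the GC box GGGCGG or the CCAAT box CCAAT on either strand. Mmp11 is at chr10:75932503-75932752 on the minus strand, Reck at chr4:43875280-43875529 and Timp3 at chr10:86300162-86300411, both on the plus strand. The Timp3 interval given above starts earlier than the RefSeq start, at 86300372. The end of the Timp3 window, with its marked GC box, therefore lies inside that interval.
Mmp11: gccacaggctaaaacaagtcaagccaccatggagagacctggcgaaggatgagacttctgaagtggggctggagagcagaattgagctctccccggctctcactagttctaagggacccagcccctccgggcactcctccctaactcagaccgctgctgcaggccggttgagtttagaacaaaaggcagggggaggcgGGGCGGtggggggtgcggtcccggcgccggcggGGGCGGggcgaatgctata
Reck: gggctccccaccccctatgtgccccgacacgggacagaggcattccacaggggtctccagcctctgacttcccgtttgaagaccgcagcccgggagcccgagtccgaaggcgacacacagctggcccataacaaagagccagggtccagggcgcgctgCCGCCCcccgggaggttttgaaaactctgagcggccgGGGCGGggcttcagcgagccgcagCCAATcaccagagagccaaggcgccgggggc
Timp3: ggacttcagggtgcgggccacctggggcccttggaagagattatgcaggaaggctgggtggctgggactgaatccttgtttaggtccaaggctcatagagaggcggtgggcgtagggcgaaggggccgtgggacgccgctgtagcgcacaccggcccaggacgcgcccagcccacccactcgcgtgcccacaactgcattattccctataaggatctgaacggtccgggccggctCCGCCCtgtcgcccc

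The Mmp11 and Reck windows each held 2 GC boxes and that of Timp3 held 1, while 32.7% of the 32851 RefSeq mouse promoter windows of this length held at least 1. Reck had 1 CCAAT box, a sequence found in 33.8% of windows. Neither the TATA box TATAAA (12.4% of windows) nor the AP-1 site TGANTCA (6.7%), through which many inducible MMP genes are driven, matched in these windows or in those of Mmp14, Mmp23, Timp1 and Timp2. The Timp2 window lay wholly inside the Timp2 gene interval given above, and an alternative Mmp23 window, chr4:155653291-155653540, ran into that of Mmp23. The GC content of the 3 printed windows was 63.2%, 68.4% and 65.6%, against a median of 52.4%. Mmp14, which was lower in mean, also held 2 GC boxes, together with 2 CCAAT boxes, so these letters did not sort the genes by direction. The promoters of Mmp2 and Mmp19 were not used here. A match describes letters only.

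The other genes of cell surface proteolysis were counted in 5 lists, 49 genes in all, of which 33 passed the filter. None had an adjusted p under 0.05 in limma, 7 had an unadjusted p under 0.05 (1 higher, 6 lower), against 10.9% of all genes tested, and 6 met the study's thresholds (1 higher, 5 lower), against 5.7%. With the replicate block 5 had an adjusted p under 0.05, of which 1 was higher and 4 lower, against 2.08%. The same shares are the background of the counts for each list, which rest on 3 to 12 genes. The median log2 fold change of the 33 was -0.22.

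The list of convertases and surface partners of MMPs held the enzymes that cut the furin-type sites shown above. All 12 of its genes were tested, and 1 was higher and 1 lower at the study's thresholds, with a median of -0.14. Furin, the convertase that activates Mmp11 and Mmp14, read 514, 280 and 448 in untreated and 184, 182 and 165 in treated libraries. All treated values lay below all untreated ones, and were close to each other. Its log2 fold change was -1.18 ± 0.27 (SE), and the adjusted p in limma was 0.109, or 0.0284 with the replicate block. Pcsk6, or PACE4, a secreted convertase held at the cell surface, read 243, 226 and 194 in untreated and 702, 444 and 839 in treated libraries. Here every treated library was above every untreated one. Its log2 fold change was 1.53 ± 0.28 (SE), and the adjusted p in limma was 0.0531, or 0.00594 with the block.

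The list of inducible MMPs held 11 genes, some of which cytokines switch on through AP-1 and NF-kB. Of these 11, 4 were tested and 3 were lower at the study's thresholds, with a median log2 fold change of -1.51. Mmp3, or stromelysin 1, had the lowest p and read 4166, 5120 and 2530 in untreated and 666, 1118 and 1745 in treated libraries. The groups did not overlap. Its log2 fold change was -1.79 ± 0.37 (SE), and the adjusted p in limma was 0.0764, or 0.0091 with the block. The gelatinase Mmp9 and the collagenase Mmp13, with log2 fold changes of -1.70 and -1.31, had overlapping groups and adjusted p-values of 0.265 and 0.254 in limma. With the block these were 0.00371 and 0.0105.

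Among the 7 other membrane-type and orphan MMPs, 3 were tested, with a median log2 fold change of -0.58. Mmp17, a GPI-anchored membrane protease, was the one with the lowest p and read 26, 16 and 22 in untreated and 5, 5 and 13 in treated libraries. All treated values lay below all untreated ones, by 3 normalised counts at the closest. Its log2 fold change was -1.46 ± 0.53 (SE), with an unadjusted p of 0.0183 and an adjusted p of 0.316 in limma. Treated values of 5 lie near the 2.5 to 5.37 normalised counts that 3 reads are worth, so the size of this change is poorly known.

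The 8 ADAM sheddases, membrane proteases of which some, Adam10 and Adam17 among them, are inhibited by Timp3, were all tested. Among them 1 was lower at an unadjusted p under 0.05 and none met the study's thresholds, with a median of -0.22. Adam19, a membrane sheddase, had the lowest p and read 58, 74 and 103 in untreated and 37, 37 and 47 in treated libraries. These groups did not overlap, and the log2 fold change was -0.91 ± 0.32 (SE) at an adjusted p of 0.291 in limma. Adam17, the sheddase of TNF, had a log2 fold change of -0.33 with an unadjusted p of 0.25 in limma.

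Of the 11 other inhibitors and modulators, 6 were tested and none passed at an unadjusted p under 0.05, with a median of 0.26. Pcolce2, an enhancer of procollagen processing, had the lowest p and read 58, 123 and 68 in untreated and 48, 29 and 61 in treated libraries. Its groups overlapped, and the log2 fold change was -0.82 ± 0.38 (SE) at an adjusted p of 0.465 in limma. Timp4, the remaining TIMP, was not tested, since it read 5 in untreated replicate 1 and 0 in the other 5 libraries.

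**Figure D4:**
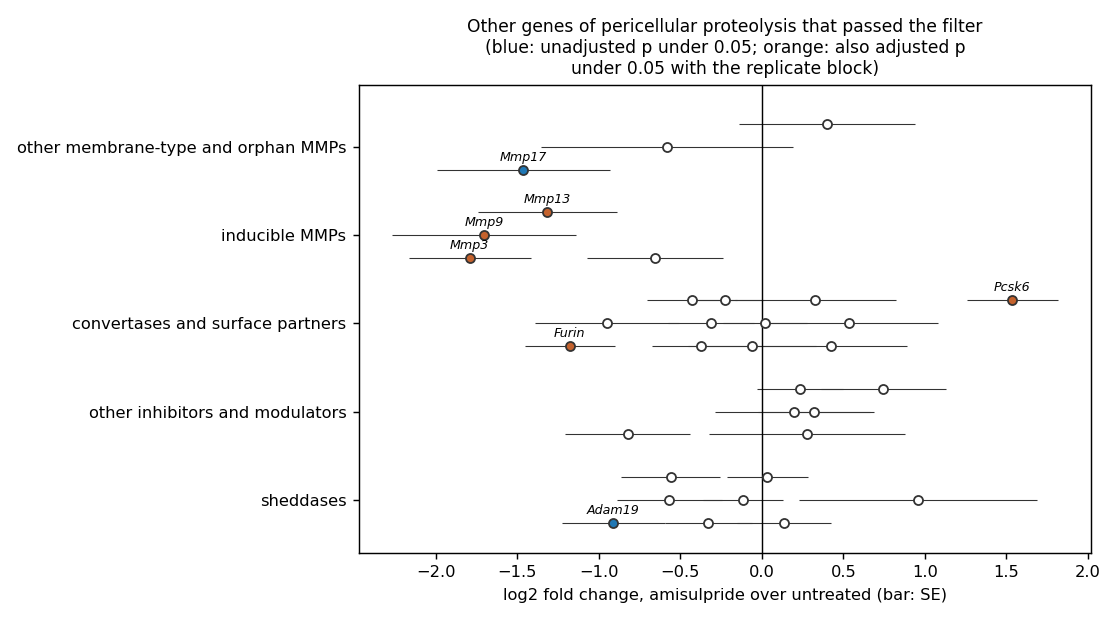
Log2 fold change (amisulpride over untreated, horizontal axis) with its SE for the 33 other genes of cell surface proteolysis that passed the filter, 1 row of points per list with heights spread only to keep points apart. Blue points have an unadjusted limma p under 0.05 and orange ones also an adjusted p under 0.05 with the replicate block, and of the 7 coloured points only Pcsk6 lies above 0.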

How the data were processed

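The authors made 3′ mRNA libraries (QuantSeq) from the 3 untreated and 3 amisulpride-treated cultures, sequenced them on an Ion Proton and mapped reads to mm10 with TopHat2 and then Bowtie2. Through metaseqr they counted reads per gene with GenomicRanges, normalised the counts and tested differences with DESeq (versions not given in the sources used here). The deposited values used here are a score, namely counts divided by 1 factor per library and rounded. The authors' fold changes and p-values and 12 further columns of values per library were not used.

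Groups were compared in R 4.3.3 with limma 3.58.1 (empirical Bayes with a variance trend, prior degrees of freedom 7.31) on log2(normalised count + 1), for genes with at least 10 in at least 3 of 6 libraries, two-sided, with Benjamini-Hochberg adjustment over 12614 genes. The code was tested on simulated data. An exact permutation test was used for ratios. The pseudocount understates the change of low genes. The labels number the replicates but state no pairing. Deviations from the group mean correlated at 0.201 to 0.24 between libraries of equal replicate number and at -0.149 to -0.0777 otherwise. Deviations within a group sum to 0, so the negative values largely follow from the positive ones. The fit with the replicate block, which takes the numbers to pair libraries, was run as an alternative to the main fit, which has no block. No pair of libraries was identical. The worth of 3 reads, the most that a count of 0 allows, covers counting error only, since no molecular identifiers were used.

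The genes named are the 9 chosen by name, the gene with the lowest p of each of 5 lists and any with an adjusted p under 0.05, overlapping genes and the 3 nearest profiles to the gene with the lowest p. Furin, Mmp9, Mmp13, Adam17, Timp4 and single marker genes were added after their values were seen. Members, lists and tests were chosen with earlier results of these data known.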

Additional observations from a re-analysis of the deposited data

How the results depend on the processing

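Of the recomputed log2 fold changes of the 9 genes, 112 kept their direction and side of the 0.05 threshold, 3 newly passed it and 2 changed sign. The sign turned for Mmp2 on leaving out untreated replicate 1 (-0.19, in a range of -0.19 to 0.33) and for Timp1 on leaving out amisulpride replicate 3 (0.027, in a range of -0.82 to 0.027), and for the Mmp2 to Timp2 ratio without untreated replicate 3 (0.0244) or amisulpride replicate 1 (0.047). The number of the 9 genes with an adjusted p under 0.05 in limma went from 0 to 2 with the replicate block and to 1 with weights per library (Mmp11, 0.0472), and stayed at 0 in every leave-one-out fit. For the other 49 genes that number went from 0 to 5 with the block, 2 with quantile normalisation, 2 with weights, and 1 each with a filter of 50, no filter and a pseudocount of 5.

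Over the leave-one-out fits, 2 to 3 of the 9 genes met the study's thresholds, with a median of -0.15 to 0.33, and of the other genes 4 to 9 did and 0 to 3 had an adjusted p under 0.05 (3 without amisulpride replicate 3). The ratios ranged from -0.35 to 0.047 for Mmp2 to Timp2, -1.23 to -0.76 for Mmp14 to Timp2, -2.43 to -1.62 for Mmp14 to Reck and -1.66 to -1.12 for Timp1 to Timp3. Timp3, at 0.83 to 1.18 over all alternatives, joined Mmp11 and Reck there without untreated replicate 2 (1.18), without amisulpride replicate 3 (1.15) and with weights (1.09), and Mmp19 did so without amisulpride replicate 1 (-1.01). Over the same alternatives the adjusted p was 0.0257 to 0.336 for Mmp11, 0.0266 to 0.402 for Reck and 0.0613 to 0.604 for Timp3. Genes called over the whole table numbered 36, but 0 when untreated replicate 2 or 3 was left out, 1 when untreated replicate 1 was, and 120 when amisulpride replicate 3 was. The sign-flip test of the paired ratios cannot go below 0.25. With 3 libraries a group, an interval of a log2 fold change such as that of Timp1 spans both a fall and an increase, and does not show that the gene was unchanged.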
